A study of Mus musculus with 10 samples.

Results

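Macrophage lineage marker genes were followed in 2 levels of the abdominal aorta, taken from male mice of the ApoE-/- genotype aged 14 weeks. The set was fixed by name and holds 10 genes: Adgre1, Csf1r, Cd14, Lyz2, Mrc1, Cd163, Mpeg1, Fcgr3, Tyrobp and Fcer1g. A probe annotated to the gene was found for 9 of them, with 1 probe each, among 17991 genes with a named probe. Csf1r, the receptor for macrophage colony-stimulating factor, had no probe in the annotation used here and was not analysed. Every mouse lacked apolipoprotein E, which clears lipoprotein remnants from blood, so both groups shared the knockout and no wild-type aorta was compared. Aortas of 2 mice were pooled, and each of 5 pools, numbered 1, 6, 8, 11 and 12, gave an infrarenal sample from below the kidney arteries and a suprarenal sample from above them. The 5 infrarenal and 5 suprarenal samples were read on 1 single-colour array each. No cells were sorted, so a lower signal in the segment cannot be told apart as fewer macrophages or as less RNA per macrophage.

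Macrophages in the artery wall come from tissue-resident cells of the adventitia and from blood monocytes that enter the intima. In mice without apolipoprotein E they take up modified lipoproteins and become the foam cells of atherosclerotic plaque. Their identity genes fall into a few groups: surface receptors that define the lineage, receptors that bind microbes and scavenge ligands, lysosomal and pore-forming effectors, and the Fc receptors with their signalling adaptors. The adaptors carry an immunoreceptor tyrosine-based activation motif, known as ITAM, which recruits the kinase Syk. None of the members is confined to macrophages. Lyz2 is also strong in neutrophils, Mrc1 is also made by lymphatic and liver endothelium, and Fcer1g and Tyrobp also serve mast cells and natural killer cells.

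On the deposited scaling all 9 measured markers had a lower mean in infrarenal than in suprarenal aorta, 7 of 9 did after quantile normalization, and none passed the test. The differences, infrarenal minus suprarenal on the log2 scale, ran from -0.53 for Adgre1 to -0.05 for Cd163, with a median of -0.18. The median over all 17991 genes was -0.05, and 60.4% of genes had a lower infrarenal mean. The probes of 8 markers, all but Adgre1, were at or above the median brightness of genes, and among the 8996 genes of that class 73.6% were lower, with a median of -0.08. The lower mean of those 8 markers thus stands beside a background in which most genes of that brightness also lay lower. After adjustment over 36061 probes 0 members were called (limma), where the background was 0% in either direction. At an unadjusted p under 0.05 there was 1 member, Cd14, where 5.89% of genes were lower at that level. In 0 of the 9 did every infrarenal array lie below every suprarenal one, a pattern that 0.878% of genes showed.

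The arrays differed in brightness between the regions although their medians were alike. The upper quartile of intensity lay between 4.85 and 5.14 on infrarenal arrays and between 5.25 and 5.42 on suprarenal arrays, so the ranges did not overlap. With quantile normalization, which gives all arrays the same distribution, the median over all genes moved to 0.0015 and 46.5% of the brighter genes were lower. The marker median became -0.078, with 7 of 9 markers lower. Cd163 and Tyrobp turned to 0.0051 and 0.059. The pool 12 differences ran against those of the other pools, with r = -0.421 across 17848 brighter probes, which are not independent replicates. Pool 1 also had a negative r, -0.137, where pools 6, 8 and 11 had 0.4, 0.278 and 0.128. The upper quartile of intensity was 4.95 on the infrarenal and 5.36 on the suprarenal array of pool 12. Whether the labels of the 2 pool 12 samples are right was not tested, and if they were exchanged the pool 12 difference of each marker would change sign. Every marker value here that includes pool 12 carries that doubt, so the regional difference of each marker without it is given as well. The quantile-normalized differences, the spreads, the correlations over arrays and the values of the other lists are given only with pool 12 included. Without pool 12 all 9 markers were still lower on the deposited scaling, 0 passed, and the median was -0.14. The median over all genes without pool 12 was -0.04. Smooth muscle genes, which mark the vessel wall, had a summed intensity between 1352 and 1489 over the 10 arrays.

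**Figure D1:**
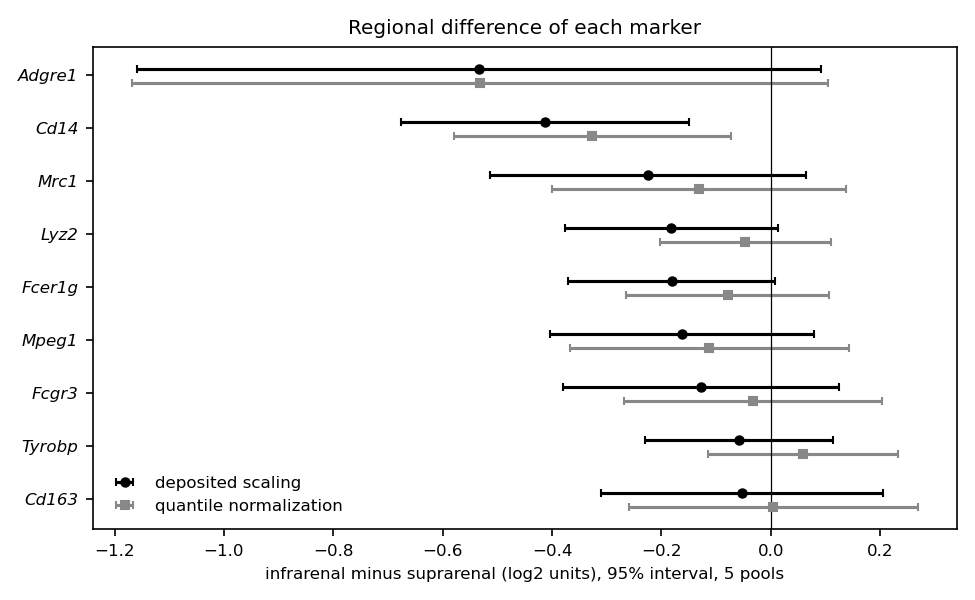
Difference between infrarenal and suprarenal aorta for the 9 markers in log2 units, with the 95% interval over 5 pools from the paired limma fit, on the deposited scaling (black circles) and after quantile normalization (grey squares). On the deposited scaling all 9 points lie left of 0, and the interval of Cd14 alone, from -0.68 to -0.15, leaves out 0. After quantile normalization Cd163 and Tyrobp lie right of 0.

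Adgre1 encodes F4/80, the surface receptor by which mouse macrophages are usually recognised. Its log2 intensity was 0.00, 0.07, -0.46, -0.13 and -0.72 in infrarenal pools 1, 6, 8, 11 and 12. The suprarenal values of the same pools were -0.21, 0.31, 0.67, -0.22 and 0.88. Suprarenal pools 8 and 12 were the highest and their infrarenal partners the lowest, while the other pools overlapped. The means were -0.25 ± 0.33 (SD, n = 5) and 0.29 ± 0.50 (SD, n = 5), a difference of -0.53 ± 0.27 (SE) with an adjusted p of 0.649. Lower infrarenal values were seen in 3 of 5 pools. Without pool 12 the difference was -0.27, and without pool 8 it was -0.38. The probe lay at the brightness percentile 50.3 of all probes, the dimmest of the set.

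Cd14 encodes the co-receptor that hands bacterial lipopolysaccharide to Toll-like receptor TLR4. In infrarenal pools 1, 6, 8, 11 and 12 it read 3.27, 2.99, 3.15, 3.22 and 2.87 log2 units. The suprarenal readings were 3.44, 3.55, 3.76, 3.26 and 3.56. Infrarenal values were lower in every pool, and the regions overlapped only through suprarenal pool 11, which read just under infrarenal pool 1. Across genes, 6.23% were lower in all 5 pools. The difference was -0.41 ± 0.11 (SE), or 0.75-fold (95% interval 0.63 to 0.90), with an unadjusted p of 0.00688 and an adjusted p of 0.639. After quantile normalization it was -0.33, with an adjusted p of 0.794, and without pool 12 it was -0.35, with an adjusted p of 0.412. Relative to the mean of the other 8 markers in the same pool, Cd14 was lower in 5 of 5 pools, by -0.22 on average (SD 0.09, n = 5 pools). It was singled out here after its values were seen, so no test is given for that excess.

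The partners of Cd14 stood closer to the median of all genes. In the lipopolysaccharide receptor list, 7 of 10 genes had a lower infrarenal mean, 0 passed in either direction, and the median difference was -0.02, turning to 0.01 after quantile normalization. Myd88, the adaptor of Toll-like receptors, differed by -0.14 ± 0.10 (SE). Tlr4, the receptor itself, differed by -0.09 ± 0.09 (SE). Both were lower in 4 of 5 pools, and neither passed.

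Mrc1 encodes the mannose receptor CD206, an endocytic receptor typical of tissue-resident macrophages. It read 3.20, 2.995, 3.27, 3.24 and 3.12 in infrarenal pools 1, 6, 8, 11 and 12. The suprarenal values were 3.11, 3.56, 3.45, 3.14 and 3.68. The 3 pools with lower infrarenal values were 6, 8 and 12, and pools 1 and 11 ran slightly the other way. The spread was 0.25 (SD, n = 5) above and 0.11 (SD, n = 5) below the kidneys. The difference was -0.22 ± 0.13 (SE), with an adjusted p of 0.652. It was -0.13 after quantile normalization and -0.14 without pool 6 or without pool 12.

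Cd163 encodes the scavenger receptor for haemoglobin bound to haptoglobin. Infrarenal pools 1, 6, 8, 11 and 12 gave 1.53, 1.38, 1.70, 1.51 and 1.96. Suprarenal values were 1.73, 1.76, 1.76, 1.34 and 1.75. Here the highest array was infrarenal pool 12 and the lowest suprarenal pool 11, so the regions overlapped throughout. The difference of -0.05 ± 0.11 (SE) had an adjusted p of 0.903 and an interval from -0.31 to 0.20. It turned to 0.03 without pool 6, and was -0.12 without pool 12 and -0.02 without pool 1. Cd163 followed the other markers least over the arrays, with a Pearson r of 0.424 against their mean.

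Lyz2 encodes lysozyme M, a secreted and lysosomal enzyme that breaks bacterial walls. It read 6.20, 5.94, 6.21, 6.07 and 6.06 in infrarenal pools 1, 6, 8, 11 and 12. Suprarenal values were 6.20, 6.22, 6.60, 6.07 and 6.29. Infrarenal values were nominally lower in 5 of 5 pools, but in pools 1 and 11 by only 0.004 and 0.005 log2 units in size, and pools 6, 8 and 12 carried the difference. The mean difference was -0.18 ± 0.08 (SE), with an adjusted p of 0.639, -0.05 after quantile normalization and -0.17 without pool 12. The nearly identical gene Lyz1 encodes lysozyme P, and the sources used here do not say whether the probe tells them apart.

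Mpeg1 encodes perforin-2, a pore-forming protein of phagocytes. Infrarenal values were 1.18, 1.37, 1.43, 0.86 and 1.12 in pools 1, 6, 8, 11 and 12. Suprarenal values were 1.22, 1.27, 1.86, 1.03 and 1.39. Pool 8 was the highest and pool 11 the lowest in both regions. The regional difference was -0.16 ± 0.10 (SE), lower in 4 of 5 pools, with an adjusted p of 0.672. It was -0.09 without pool 8, -0.11 after quantile normalization and -0.14 without pool 12.

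Fcgr3 encodes Fc gamma receptor III, which binds immune complexes of immunoglobulin G. It read 3.99, 3.56, 3.86, 3.86 and 3.86 in infrarenal pools 1, 6, 8, 11 and 12. The suprarenal readings were 3.82, 3.82, 4.21, 3.69 and 4.23. Suprarenal pools 8 and 12 lay above every infrarenal array, and the other suprarenal arrays fell within the infrarenal range. The difference was -0.13 ± 0.11 (SE), with an adjusted p of 0.738. It was -0.03 after quantile normalization, -0.07 without pool 8 and -0.07 without pool 12.

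Fcer1g encodes the Fc receptor gamma chain, the ITAM adaptor that Fcgr3 needs at the surface. Infrarenal pools 1, 6, 8, 11 and 12 read 4.09, 3.89, 4.07, 4.02 and 4.01. Suprarenal values were 4.15, 3.94, 4.37, 4.12 and 4.40. It was lower in 5 of 5 pools, and 4 of the 5 suprarenal arrays exceeded every infrarenal one. The exception was suprarenal pool 6. The difference was -0.18 ± 0.08 (SE), or 0.88-fold (95% interval 0.77 to 1.01), with an adjusted p of 0.639. It was -0.08 after quantile normalization and -0.13 without pool 12.

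Tyrobp encodes DAP12, the second ITAM adaptor of the set, which pairs with receptors such as TREM2. Infrarenal values were 4.60, 4.16, 4.49, 4.42 and 4.39 in pools 1, 6, 8, 11 and 12. Suprarenal values were 4.61, 4.21, 4.62, 4.32 and 4.58. Pool 6 was the lowest in both regions, and the regions otherwise overlapped. The difference was -0.06 ± 0.07 (SE), with an adjusted p of 0.821 and an interval from -0.23 to 0.11. It turned to 0.059 after quantile normalization and was -0.02 without pool 12. On the deposited scaling Tyrobp and Cd163 were the markers of smallest difference.

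**Figure D2:**
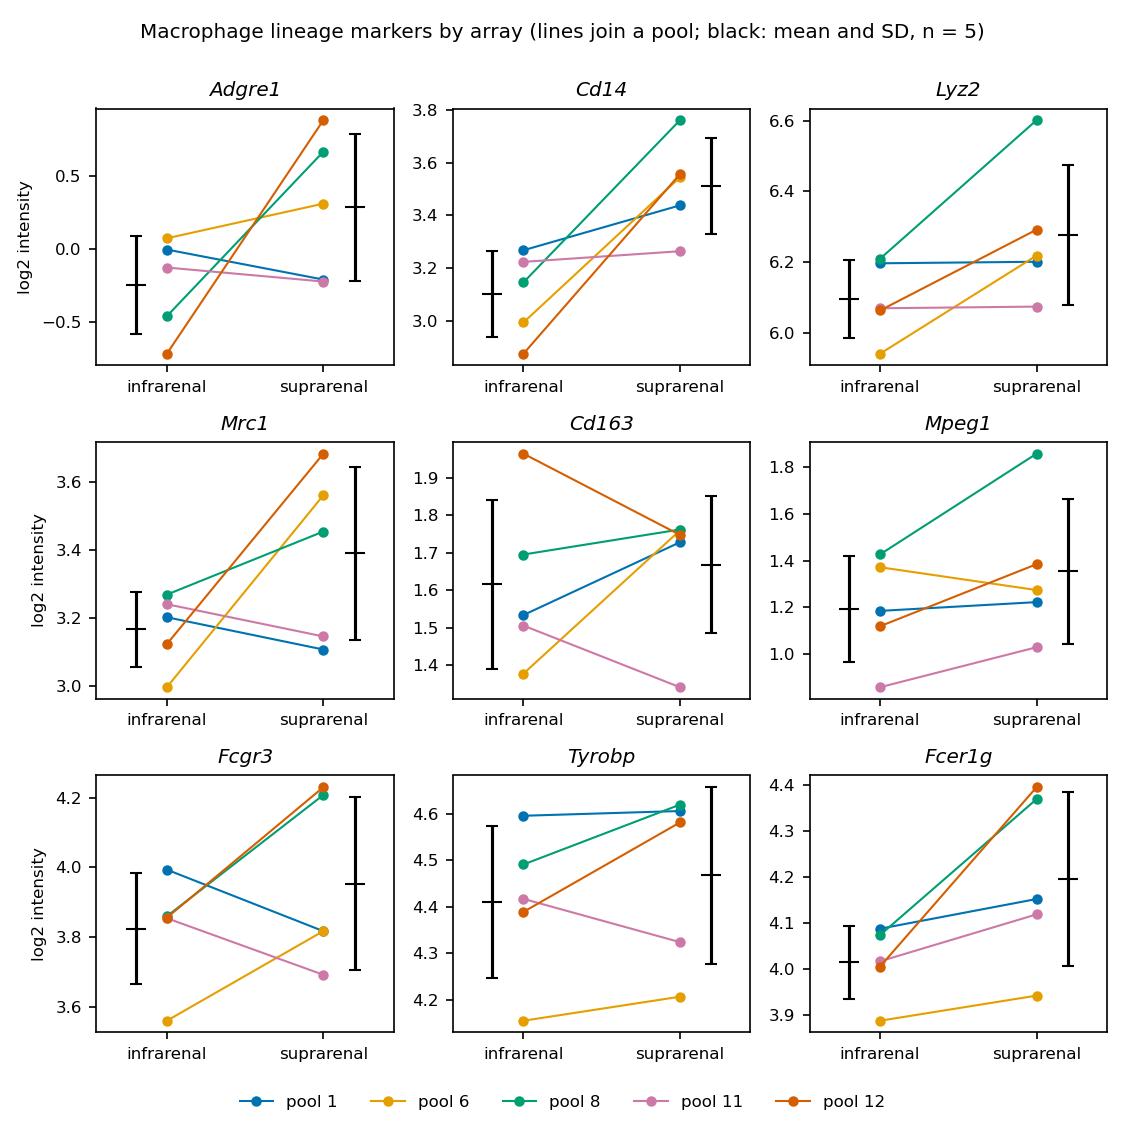
Log2 intensity of the 9 markers in infrarenal and suprarenal aorta, 1 panel per gene, with a line joining the samples of a pool and the mean and SD (n = 5) in black beside each region. Axes differ between panels and do not start at 0. Suprarenal pools 8 and 12 lie at the top for most genes, and the regions overlap in every panel.

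The differences were not shared evenly by the pools. The median over the 9 markers was -0.26 in pool 6, -0.35 in pool 8 and -0.37 in pool 12. In pools 1 and 11 it was -0.01 and 0.09. Of the 9 markers, 8 were lower in infrarenal aorta in pool 6, 9 in pool 8 and 8 in pool 12, against 6 in pool 1 and 4 in pool 11. The median over all genes in those pools lay between -0.10 and 0.03. The marker median thus lay below that of all genes in pools 1, 6, 8 and 12 and above it in pool 11. On the deposited scaling Cd14, Lyz2 and Fcer1g were negative in every pool, and no marker was positive in every pool.

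**Figure D3:**
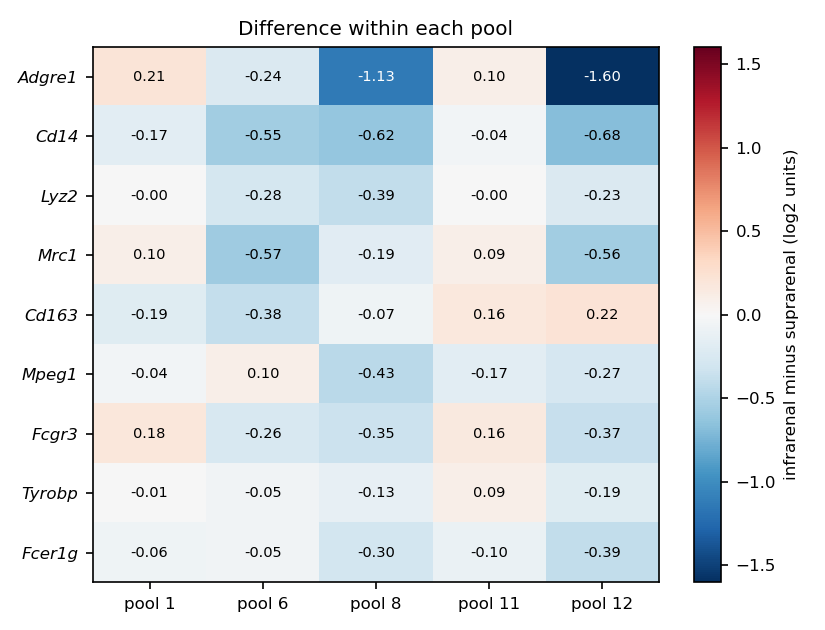
Infrarenal minus suprarenal difference of each marker within each pool, in log2 units, with blue for lower and red for higher infrarenal values. The columns of pools 8 and 12 are mostly blue, with Adgre1 at -1.13 and -1.60, and those of pools 1 and 11 are pale.

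Suprarenal pools 8 and 12 were the arrays on which the markers stood high. Each was above the gene's own mean over all arrays for 9 of 9 markers, and each was the highest array for 4 markers. The exception was Cd163, highest in infrarenal pool 12. Infrarenal pool 6 was the lowest array for 5 markers. The spread between arrays was larger above the kidneys than below for 8 of the 9 genes, with a mean SD of 0.25 against 0.17 log2 units. The exception was again Cd163. Whether the spread differs between the regions was not tested, and the share of all genes with a larger suprarenal spread was not computed. Most markers moved together over the arrays, so the 8 genes are not separate observations.

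Differences between pools were tested apart from region with the F test of the pool term in the same limma fit. Over all probes 5 of 36060 passed, a background of 0.0139% (0.0167% of genes), and 0 members passed, with adjusted p between 0.828 and 0.977. At an unadjusted p under 0.05 there were 2 members, Mpeg1 and Tyrobp, where the background of genes was 7.29%. Mpeg1 had pool means from 0.94 in pool 11 to 1.64 in pool 8. Tyrobp ranged from 4.18 in pool 6 to 4.60 in pool 1, so the pools took a different order for each gene.

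The markers' courses over the 10 arrays were compared as a description, since both samples of a pool share animals and the arrays share their scaling. Each marker was set against the mean of the other markers whose probes lay at or above the median brightness of genes, 8 in all. The Pearson r was 0.94 for Lyz2, 0.883 for Fcgr3, 0.817 for Fcer1g and 0.743 for Cd14. For Mrc1, Adgre1, Tyrobp and Mpeg1 it lay between 0.584 and 0.691. Spearman's rho was 0.939 for Lyz2 and 0.515 for Cd163. Among genes outside the set with brighter probes, the 8 closest to the mean of the markers were P2rx4, C1qb, 1700066M21Rik, Snx6, Rab3il1, Marchf1, Ccl9 and Cenpk. Their r ran from 0.909 for P2rx4, a purine-gated ion channel, to 0.877 for Cenpk, a kinetochore gene. These genes were picked as the highest of 8902 over only 10 arrays. How high r would run for unrelated genes so picked was not tested. C1qb, a chain of complement C1q that macrophages make, had an r of 0.905 and a regional difference of -0.33 ± 0.08 (SE), lower in 5 of 5 pools. The chemokine gene Ccl9 differed by -0.40 ± 0.12 (SE), lower in 4 of 5 pools. None of the 8 passed the test, with adjusted p between 0.639 and 0.756.

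Promoters of the 3 markers with the highest Pearson r to the others are shown as RefSeq gives them in GRCm38.p6, the 250 bases before the start site. Macrophage genes are often driven by the ETS-family factor PU.1, and the PU-box letters GAGGAA or their reverse complement TTCCTC, on either strand, are in capitals. The Lyz2 window is chr10:117282273-117282522 on the minus strand. The Fcgr3 window is chr1:171059404-171059653 on the minus strand, for 1 of the 2 start sites listed, and the Fcer1g window is chr1:171234350-171234599 on the minus strand.
Lyz2: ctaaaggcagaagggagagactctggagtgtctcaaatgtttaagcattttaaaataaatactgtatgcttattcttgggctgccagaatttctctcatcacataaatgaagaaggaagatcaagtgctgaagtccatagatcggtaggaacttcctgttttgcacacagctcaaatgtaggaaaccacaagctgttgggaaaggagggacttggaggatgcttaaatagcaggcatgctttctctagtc
Fcgr3: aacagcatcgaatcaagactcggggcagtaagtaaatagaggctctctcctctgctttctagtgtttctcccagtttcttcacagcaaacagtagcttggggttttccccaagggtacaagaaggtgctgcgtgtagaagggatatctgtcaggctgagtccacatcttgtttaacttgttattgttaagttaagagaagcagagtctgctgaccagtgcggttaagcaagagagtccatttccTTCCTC
Fcer1g: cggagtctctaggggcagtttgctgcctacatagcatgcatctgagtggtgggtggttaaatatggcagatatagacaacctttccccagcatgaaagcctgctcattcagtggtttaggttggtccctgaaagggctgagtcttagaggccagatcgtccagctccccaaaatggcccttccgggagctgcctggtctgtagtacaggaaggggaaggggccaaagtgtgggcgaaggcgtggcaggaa
These letters occurred once in the Fcgr3 window, beginning 6 bases before the start site, and in neither of the other windows. Of all 32851 listed promoter windows of that length, 23.3% held them. A match is a description of the letters and was not tied to any measured binding.

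Other genes of the lineage were read from lists written with earlier results of these data known. Of 21 further macrophage genes, 21 had a lower infrarenal mean, 0 passed, and the median difference was -0.26, or -0.19 with 17 of 21 lower after quantile normalization. C1qc, another C1q chain, differed by -0.42 ± 0.09 (SE) and was lower in 5 of 5 pools. Vsig4, a complement receptor of resident macrophages, differed by -0.87 ± 0.22 (SE) and was lower in 4 of 5 pools. Among 14 tissue-resident macrophage genes, 11 were lower and 0 passed, with a median of -0.14, or -0.03 with 10 of 14 lower after quantile normalization. F13a1, a coagulation factor subunit made by resident macrophages, differed by -0.26 ± 0.08 (SE). Maf, a transcription factor of those cells, differed by -0.25 ± 0.11 (SE), and both were lower in 5 of 5 pools.

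Monocyte genes did not share the sign of the markers. Of 10 measured, 5 were lower and 5 higher, 0 passed, and the median was 0.03. After quantile normalization 1 of 10 was lower and the median was 0.10. Cx3cr1, the fractalkine receptor, differed by 0.22 ± 0.16 (SE). Fn1, fibronectin, which monocytes share with the cells of the vessel wall, differed by 0.27 ± 0.10 (SE). In the colony-stimulating factor axis 5 of 8 genes were lower, 0 passed and the median was -0.02, turning to 0.03 after quantile normalization. That list held Csf1 and Il34 but also Csf2, Csf3 and receptor chain genes, so it is not particular to macrophages. The receptor chain gene Csf2rb2 differed by 0.26 ± 0.12 (SE) and the growth factor gene Csf2 by -0.32 ± 0.19 (SE). The Csf2 probe was dim, at brightness percentile 29.2. Of 11 myeloid transcription factors, 9 were lower, 0 passed and the median was -0.15 (8 lower, median -0.11 after quantile normalization), with Runx1 at 0.22 ± 0.09 (SE) and higher in 5 of 5 pools.

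The Fc receptors and partners of the ITAM adaptors had a median of -0.04, turning to 0.02 after quantile normalization, with 10 of 16 lower and 0 passing in either direction. Clec5a, a receptor that signals through DAP12, differed by -0.36 ± 0.14 (SE). Clec4d, a C-type lectin that signals through the Fc receptor gamma chain, differed by -0.50 ± 0.24 (SE). Both were lower in 4 of 5 pools.

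**Figure D4:**
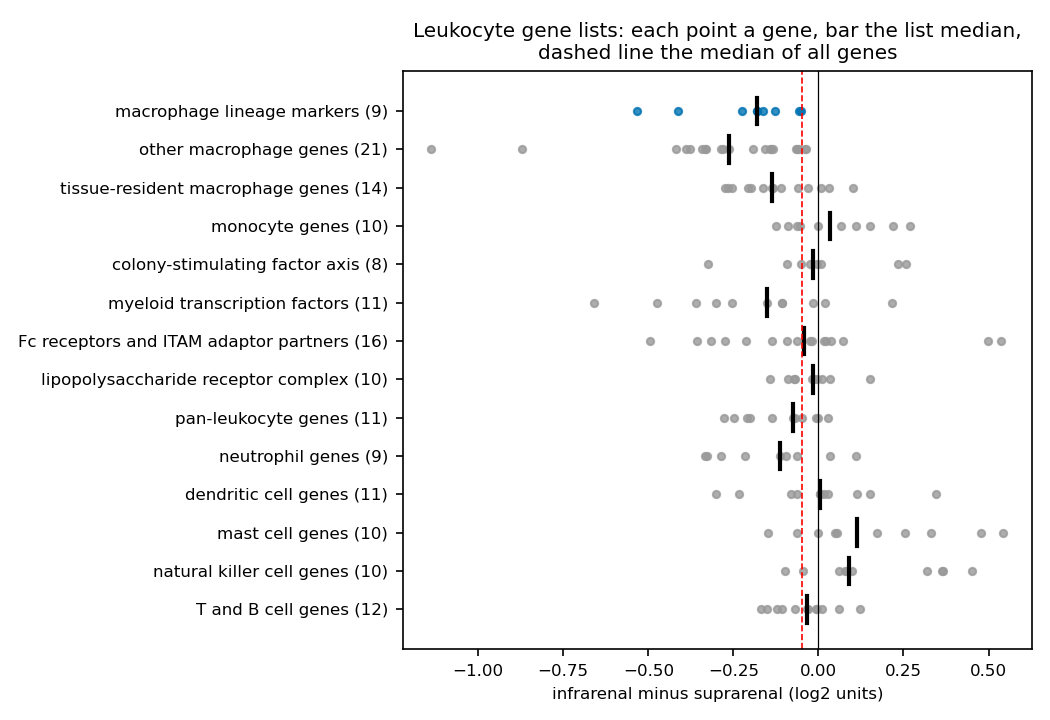
Infrarenal minus suprarenal difference in log2 units for each measured gene of the markers (blue) and of 13 other leukocyte lists (grey), with the list median as a black bar, the number of genes in brackets and the median of all genes as a dashed line. On the deposited scaling shown, the markers and the further macrophage genes lie left of 0 throughout, where 7 of 9 and 17 of 21 did after quantile normalization. Medians right of 0 are those of the monocyte, dendritic, mast and natural killer cell lists.

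Genes of other leukocytes that share some of the markers were set beside them. Pan-leukocyte genes were lower in 10 of 11 cases with a median of -0.07 (7 of 11 after quantile normalization), and Laptm5, a lysosomal protein of blood cells, differed by -0.28 ± 0.11 (SE). Neutrophil genes, which bear on Lyz2, were lower in 7 of 9 cases with a median of -0.11, or -0.25 after quantile normalization. Their summed intensity was 6.44 to 12.8 on infrarenal and 8.42 to 19.8 on suprarenal arrays. The 19.8 was that of suprarenal pool 1 alone, and the other suprarenal sums, 8.42 to 9.63, fell within the infrarenal range. Cxcr2, a neutrophil chemokine receptor, differed by -0.33 ± 0.16 (SE), and the calgranulin gene S100a8 by -0.33 ± 0.25 (SE). The natural killer cell genes, which bear on Tyrobp, Fcer1g and Fcgr3, were higher in 8 of 10 cases with a median of 0.09, or 0.03 after quantile normalization. Nkg7, a granule protein, differed by 0.36 ± 0.12 (SE), and Klra8, an activating receptor, by 0.37 ± 0.20 (SE). Mast cell genes were higher in 7 of 10 cases with a median of 0.11 (0.19 after quantile normalization). Ms4a2, a chain of the immunoglobulin E receptor, differed by 0.54 ± 0.22 (SE), on a dim probe at brightness percentile 28.8. Kit, the stem cell factor receptor, differed by 0.48 ± 0.21 (SE). No gene of these 4 lists passed.

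The remaining lymphoid and myeloid lists lay near the median of all genes. T and B cell genes were lower in 9 of 12 cases with a median of -0.03 (6 of 12, median -0.02 after quantile normalization), with Cd79a at -0.15 ± 0.09 (SE) and Ighm at -0.17 ± 0.11 (SE). Dendritic cell genes were lower in 4 of 11 cases with a median of 0.01 (0.05 after quantile normalization), with Xcr1 at -0.23 ± 0.08 (SE) and Clec9a at 0.34 ± 0.12 (SE). Osteoclast genes were lower in 5 of 7 cases with a median of -0.09 (4 of 7, median -0.06 after quantile normalization), with Atp6v0d2 at -0.50 ± 0.25 (SE) and Acp5 at -0.33 ± 0.23 (SE). No gene of these lists passed.

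Tissue around the vessel varied between the same arrays. Brown adipocyte genes summed to an intensity of 201 on suprarenal pool 12, where the other suprarenal sums ran from 779 to 1103 and the infrarenal ones from 210 to 918. On suprarenal pool 12 the macrophage markers summed to 174.5 in intensity units, above every infrarenal sum (128 to 155) and below the highest sum, 194 on suprarenal pool 8. Skeletal muscle genes summed to 541 on suprarenal pool 12, to 523 on infrarenal pool 8 and to 277 on suprarenal pool 8, and ranged from 28.6 to 369 on the other arrays. White adipocyte genes were lower in 8 of 8 cases with a median of -0.24 (7 of 8, median -0.11 after quantile normalization), with Lpl at -0.56 ± 0.20 (SE) and Pnpla2 at -0.42 ± 0.35 (SE). Brown adipocyte genes were lower in 8 of 10 cases with a median of -0.59 (-0.48 after quantile normalization), with Fabp3 at -1.09 ± 0.28 (SE) and Elovl3 at -1.51 ± 0.68 (SE). Their part in the marker values was not tested. Of the vessel wall, smooth muscle, endothelial and fibroblast genes had medians of 0.11, 0.03 and -0.06, which became 0.22, 0.12 and 0.07 after quantile normalization. The smooth muscle genes of smallest p were Pln at 0.27 ± 0.10 (SE) and Lmod1 at 0.26 ± 0.12 (SE). In the endothelial list they were Cldn5 at -0.37 ± 0.16 (SE) and Cdh5 at -0.34 ± 0.15 (SE). In the fibroblast list they were Thy1 at -0.29 ± 0.12 (SE) and Pi16 at -0.23 ± 0.13 (SE). Skeletal muscle genes had a median of 0.41 (0.52 after quantile normalization), with Myh1 at -1.08 ± 0.51 (SE) and Actn3 at 0.90 ± 0.96 (SE). The Myh1 probe was dim, at brightness percentile 25.2. Sympathetic neuron genes had a median of -0.19 (-0.12 after quantile normalization), with Dbh at -0.18 ± 0.07 (SE) and Pnmt at 0.09 ± 0.11 (SE). No gene of the adipocyte, vessel wall, skeletal muscle or sympathetic neuron lists passed.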

How the data were processed

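Per the labels' protocols, 0.34 to 0.54 µg of RNA was amplified into cRNA carrying biotin and read with Cy5-streptavidin. Deposited values are a linear intensity per probe, already scaled by the authors to array medians of 1.001 to 1.003. The scanner, background correction and scaling method were not stated in the sources used here. Values under 0.0278 (percentile 1 of positive values) were raised to it before log2, which compresses dim probes. No marker value was at that floor. Probes with 3 values in each region were kept, 36061 of 36227. Symbols came from the platform annotation, updated by Entrez identifier through RefSeq (GRCm38.p6) for 21487 of 21615 probes with 1 symbol. Another 681 probes had several and 13931 none. The probe of highest mean stood for a gene.

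The paired comparison used limma 3.58.1 (R 4.3.3), with region and pool as fixed terms and eBayes with a variance trend. Tests were two-sided, with Benjamini-Hochberg adjustment across every tested probe and 0.05 as threshold. The design gives the pairing, since both samples of a pool share animals. Over brighter probes, region-centred values of paired arrays had r of 0.245, -0.00838, 0.0214, -0.244 and -0.184 (pools 1, 6, 8, 11 and 12). Alternatives were no replicate block, quantile normalization, a filter that dropped the dimmest 30% of probes, an offset at percentile 25 for the floor, RNA input as a covariate, array weights, no variance trend, the mean of a gene's probes, and each pool left out. Scripts were tested on simulated data. In that simulation, over probes of all brightness, the paired fit called 8% of 50 probes changed by 0.5 log2 units and 46% of 50 changed by 1. No marker differed by more than 0.53 in size, so a marker that did not pass is not thereby shown to be alike in the 2 regions.

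Members and lists were chosen with earlier results of these data known. Named genes were all members, the 2 of smallest p in each other list, and the 8 brighter genes correlating most with the members' mean. Besides Csf2, Ms4a2 and Myh1, the probes of several named list genes lay below the median brightness of all probes. They were those of Klra8, Cxcr2, Atp6v0d2, Clec9a, Cdh5, Clec4d, Cx3cr1, Clec5a and Pnmt. With 5 pools, the 95% interval of a difference reached 0.25 log2 units to either side for the median brighter probe.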

Additional observations from a re-analysis of the deposited data

Results flagged for a closer look

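Each marker was checked in each region for an array that stood apart, which made 18 sets of 5 values, and 1 set held one, close to the 0.9 that chance would give. Cd163 read 1.34 log2 units on the suprarenal array of pool 11, against 1.73 to 1.76 on the other suprarenal arrays. The gap was 0.919 of the whole range, where 0.71 is the limit for 5 values. Without pool 11 the Cd163 difference was -0.11.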

How the results depend on the processing

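Of 117 marker differences under 13 alternatives, 114 kept their sign and stayed short of the threshold, and 3 turned. Part of that count was fixed in advance. No replicate block, no variance trend, the filter of dim probes and the mean of a gene's probes left every marker difference unchanged. Each marker had 1 probe and a value on every array, so these settings could move only the p-values. Quantile normalization turned Cd163 to 0.0051 and Tyrobp to 0.059, and leaving out pool 6 turned Cd163 to 0.030, within a range from -0.12 to 0.030 with a pool left out. The marker median lay between -0.21 and -0.078 over the alternatives, and between -0.21 and -0.13 with a pool left out. With no replicate block the median of -0.18 and the 9 lower markers stayed as they were, which complete pairs fix in advance. There 0 members and 0 probes passed, so the block changed no call. With RNA input as a covariate the unadjusted limma p was 0.0011 for Cd14, 0.0053 for Adgre1, 0.024 for Mrc1 and 0.035 for Fcer1g, each with an adjusted p of 0.58. RNA input was 0.44, 0.35 and 0.51 µg on infrarenal arrays of pools 1, 11 and 12. On their suprarenal partners it was 0.54, 0.47 and 0.35 µg. Over all probes 1 passed after quantile normalization and 0 under each other alternative run. The count at an unadjusted p under 0.05 was 2726, but 1475 without pool 6, 1802 without pool 8 and 3933 without pool 12. Probes that differed between pools numbered 5, but 0 with no variance trend, 2 with RNA input as a covariate, and 1 to 4 with a pool left out. No marker passed either test under any alternative run, and the smallest adjusted p for region was 0.412, for Cd14 without pool 12. Where a count moved, the cause was not tested.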
